A study of Mus musculus with 9 samples.

Results

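From the count table of cultured mouse macrophages, which holds 24061 gene symbols, 10 genes of the TNF superfamily (the members) were chosen by name. Earlier results of these data were known at that choice. The 6 ligands were Tnf, Tnfsf4, Tnfsf9, Tnfsf10, Tnfsf15 and Tnfsf13b, and the 4 receptors were Tnfrsf1a, Tnfrsf1b, Tnfrsf11a and Fas. The table also holds 12 other ligands and 24 other receptors of the family, which are described after the members. Bone-marrow-derived macrophages (BMDMs) came from young adult female wild-type C57BL/6J mice and were grown for 7 days in medium with L-cell conditioned medium, a source of the macrophage growth factor CSF1, and were then deprived of serum. In the Veh group BMDMs received DMSO only, and in the LPS group they received DMSO and then 10 ng/mL of lipopolysaccharide (LPS), which activates Toll-like receptor 4, for 2 hr. In the T0+LPS group 500 nM of T0901317 (T0), a synthetic agonist of the liver X receptors (LXRs), was added 3 hr before the same LPS stimulation. Each group held 3 RNA-seq libraries, and there was no group with T0 alone. The time at which Veh cells were lysed for RNA was not given in the sources used here, so 2 hr more in culture and LPS itself cannot be told apart in comparisons with Veh.

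TNF superfamily ligands are mostly trimeric membrane proteins, some of which are cut from the cell surface, and they act by clustering their receptors. Receptors with a death domain, such as those encoded by Tnfrsf1a and Fas, can recruit FADD and caspase-8, and many receptors of the family use TRAF adaptors and lead to NF-kB activation. Macrophages are a main source of TNF after LPS, and several of the other ligands act on T cells, B cells or osteoclast precursors. The comparison of LPS with Veh asks which members respond to the stimulus, and that of T0+LPS with LPS asks whether an LXR agonist changes that response.

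The Tnf measurement rests on a single short exon, which is why its sequence is given first. A gene can have several rows in the table, which differ in their exons, and every row with no base of its own held 0 reads. Whether counted reads also covered shared bases is not known. The Tnf gene (chromosome 17, 35199367 to 35202007, minus strand, mm10) has 2 rows that differ only by 48 bases, and all 438 Tnf reads of the 9 libraries lie on the row that has them, while the other row holds 0. These bases are exon 3 of 4 (chr17:35200858-35200905), which is coding throughout in the GENCODE annotation of GRCm38. In the line below, capitals mark this exon and lower case marks 20 bases of the neighbouring exons on each side.
Tnf exon 3: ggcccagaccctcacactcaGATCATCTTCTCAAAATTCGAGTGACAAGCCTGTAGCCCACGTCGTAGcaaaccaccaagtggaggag

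**Figure D1:**
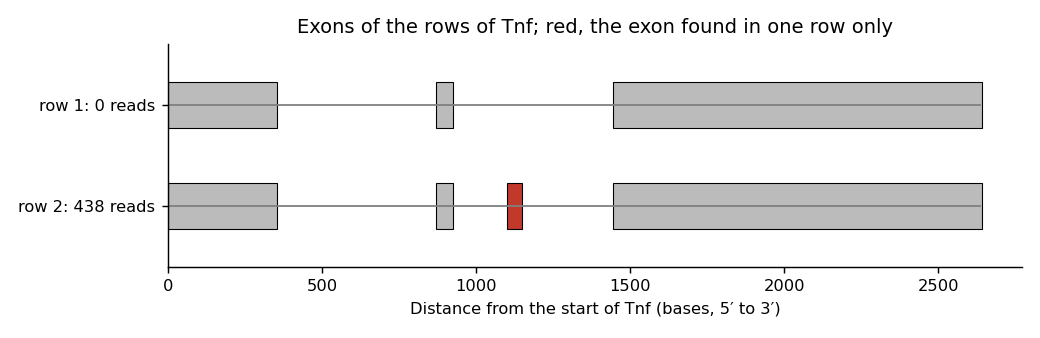
Exons of the 2 rows of Tnf (boxes) against the distance from the start of the gene in bases, 5′ to 3′, with the exon found in 1 row only in red. The 438 reads counted for Tnf lie on the row with the red exon of 48 bases, and the row without it holds 0.

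Promoter sequences from RefSeq on GRCm38.p6, from 250 bases before to 50 bases after the annotated start, were at hand for 8 of the 10 genes, and Tnfsf4 and Tnfsf9 had no entry. The promoters of 3 members are shown, because each rose over 10-fold with LPS: Tnf (chr17:35201958-35202257, minus strand), Tnfsf15 (chr4:63745010-63745309, minus strand) and Fas (chr19:34290409-34290708, plus strand). Of these only Tnfsf15 was called in T0+LPS against LPS. Capitals mark the TATA motif (TATAAA, plus strand of the gene only) and the AP-1 motif (TGANTCA, both strands).
Tnf: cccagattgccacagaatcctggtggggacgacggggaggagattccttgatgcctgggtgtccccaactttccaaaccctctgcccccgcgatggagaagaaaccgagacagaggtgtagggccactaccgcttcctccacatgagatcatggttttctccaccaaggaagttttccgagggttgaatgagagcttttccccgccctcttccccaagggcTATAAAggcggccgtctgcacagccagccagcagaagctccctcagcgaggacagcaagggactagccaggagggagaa
Tnfsf15: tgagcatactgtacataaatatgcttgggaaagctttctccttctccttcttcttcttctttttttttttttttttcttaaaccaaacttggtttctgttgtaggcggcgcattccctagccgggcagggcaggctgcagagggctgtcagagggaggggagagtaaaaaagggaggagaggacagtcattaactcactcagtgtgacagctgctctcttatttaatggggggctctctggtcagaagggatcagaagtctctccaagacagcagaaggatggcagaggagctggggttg
Fas: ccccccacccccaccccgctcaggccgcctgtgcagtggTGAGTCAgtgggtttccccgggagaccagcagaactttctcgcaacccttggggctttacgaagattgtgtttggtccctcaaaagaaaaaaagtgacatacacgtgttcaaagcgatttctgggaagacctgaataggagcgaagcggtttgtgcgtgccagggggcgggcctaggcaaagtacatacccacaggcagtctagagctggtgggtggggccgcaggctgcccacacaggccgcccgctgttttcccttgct
TATAAA was found in 1 of the 8 members with a promoter, Tnf, from 29 to 24 bases before the start, and in 8.32% of 32851 promoters of the same length. TGANTCA was found in 2 of 8, Fas from 211 to 205 bases before the start and Tnfsf13b, whose promoter entries overlap, and in 7.81% of all promoters. The nuclear receptor hexamer AGGTCA, searched on both strands, was found in 1 of 8, Tnfsf10, and in 16.3% of all promoters. No member's window matched the NF-kB consensus, found in 4.51% of all promoters, or the LXR element DR4 (the hexamer repeated in the same orientation after a gap of 4 bases), found in 0.0152% and itself a special case of the hexamer. These matches describe letters in these windows only.

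Libraries held between 13299044 and 16467983 counted reads. Levels are given as CPM, counts relative to library size scaled by TMM factors. Between genes they are compared only as CPM per kb of unshared bases, which is uncertain for genes with few such bases. TMM factors were between 1.136 and 1.144 in Veh and between 0.931 and 0.948 in the LPS-stimulated groups. Without them, the median log2 fold change of all genes tested in LPS against Veh was -0.28 in place of 0.00, and 76.2% of called genes were lower in place of 48.6%. Small differences from Veh therefore change with the scaling. Summed macrophage markers (7 of 8 listed genes in the table, with Itgam at 0 reads on 3 unshared bases) were between 24246 and 33125 CPM in every library, while each list for T cells, B cells, neutrophils, dendritic cells, fibroblasts and NK or mast cells summed to at most 3.37 CPM. In these lists S100a9 (3 unshared bases), Klrb1c (9), Cd8a (31) and Clec9a (0) held 0 reads, which say nothing of their level. Neutrophil markers (6 of 7 in the table) summed to 0.962 to 1.45 CPM in Veh and 1.88 to 3.28 CPM in the LPS-stimulated groups, and dendritic cell markers (5 of 5) to 0.232 to 0.529 CPM and 1.87 to 2.99 CPM. The macrophage sum was 24246 to 26485 CPM in Veh, 28881 to 30517 CPM in LPS and 31533 to 33125 CPM in T0+LPS, and most of it was Lyz2 (means of 19749, 21426 and 23736 CPM). Its other genes did not move together: Csf1r (3665, 4369 and 4472 CPM) and Cd14 (944, 3128 and 3352 CPM) were higher than Veh in both LPS-stimulated groups, Cd68 was at 534, 540 and 532 CPM, Fcgr1 was at 127, 70.8 and 88.9 CPM, and Mertk was at 61.0, 34.8 and 72.8 CPM. The part of these markers in the results was not tested.

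LPS raised 8 of the 10 members and lowered none at an adjusted p under 0.05 in edgeR's quasi-likelihood test (6 higher and 2 lower when libraries were scaled by their totals), and the ligands Tnfsf4, Tnf, Tnfsf9 and Tnfsf15 rose from near-silent levels. Pretreatment with T0 left Tnfsf4, Tnfsf9 and Tnfsf15 lower than LPS alone, with changes of -54.7%, -41.4% and -37.2%, and no member was called higher. Among all genes tested, 32.9% were called higher and 31.2% lower with LPS, and 1.35% were called higher and 1.83% lower with T0+LPS against LPS. The median log2 fold change of the members was 2.64 in LPS against Veh and -0.30 in T0+LPS against LPS, beside 0.00 over all genes tested in each. In these bulk samples fewer cells of a type and less RNA per cell cannot be told apart.

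**Figure D2:**
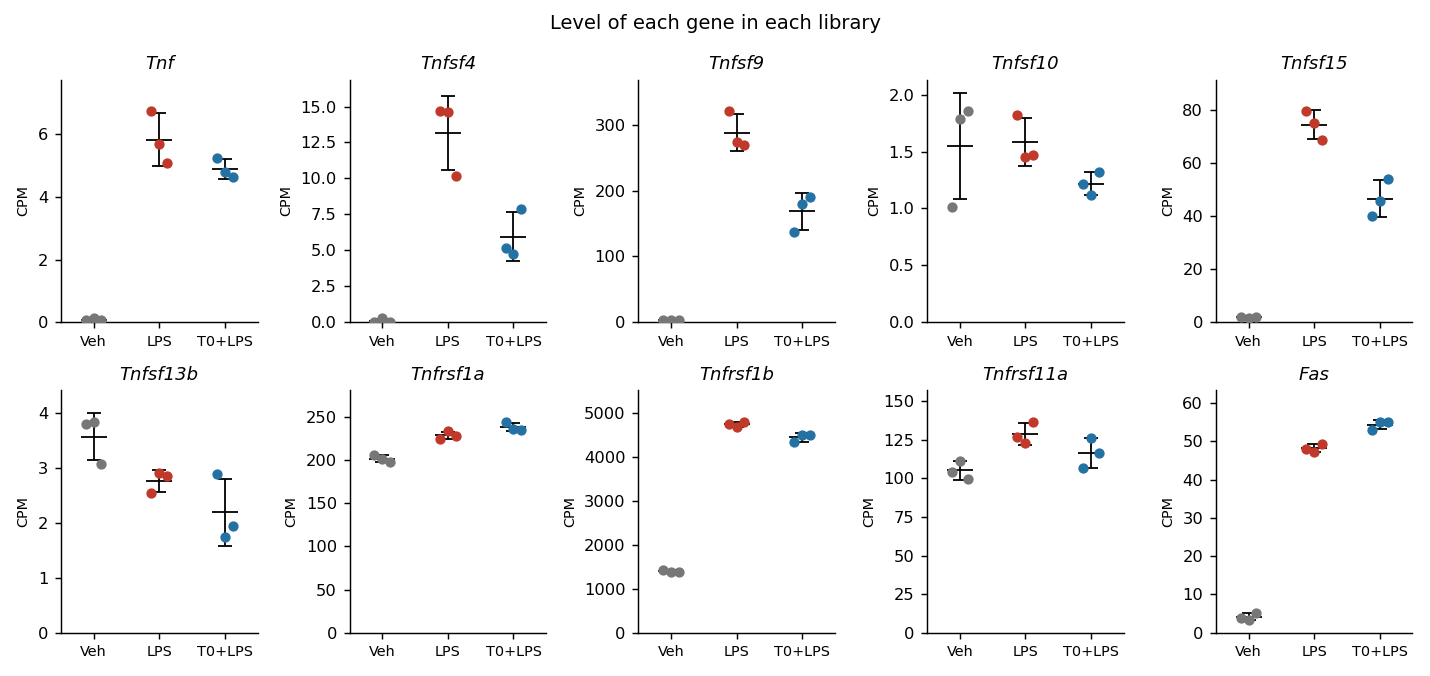
CPM of each of the 10 members (y axes, each from 0) in the 3 Veh (grey), 3 LPS (red) and 3 T0+LPS (blue) libraries, with points for libraries and bars for the mean ± SD. The T0+LPS libraries of Tnfsf4, Tnfsf9 and Tnfsf15 lie below the LPS libraries and above Veh, while Tnfsf10 stays under 2 CPM in every library.

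Tnf encodes the founding cytokine of the family. Its counts were 1, 2 and 1 in Veh, 85, 78 and 66 in LPS and 69, 69 and 67 in T0+LPS. These are 0.0812 ± 0.0442 CPM in Veh, 5.84 ± 0.832 CPM in LPS and 4.90 ± 0.315 CPM in T0+LPS (SD, n = 3 each). Veh libraries lay far below all others, and the LPS and T0+LPS libraries overlapped. With 229 counts in LPS against 4 in Veh, the ratio was 74.4, with an exact 95% interval from 28.7 to 275 that covers counting error only, and the fitted log2 fold change was 6.08 (SE 0.34, adjusted p = 1.3e-10, edgeR's quasi-likelihood test). Between T0+LPS and LPS it was -0.25 (SE 0.16, adjusted p = 0.54), a difference within the spread between replicates at this depth of 66 to 85 counts a library. These values rest on the 48 bases shown above, the only ones that set the rows of Tnf apart.

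Tnfsf4 encodes OX40 ligand, a costimulator of activated T cells, on chromosome 1 (161395438 to 161418206, plus strand). Its counts in Veh were 0, 4 and 0, or 0, 0.264 and 0 CPM. LPS libraries held 14.7, 14.6 and 10.2 CPM, and T0+LPS libraries held 5.18, 4.73 and 7.90 CPM. The 3 groups did not overlap, and LPS replicate 3 was the lowest of its group and T0+LPS replicate 3 the highest of its own. The ratio of LPS to Veh was 168, from 518 against 4 counts, with an exact counting interval from 65.4 to 620. All 4 Veh counts come from replicate 2, and without that library the fitted log2 fold change of LPS against Veh moved from 7.25 to 10.63, which is no bound, since it rests on a group at 0. In T0+LPS against LPS the log2 fold change was -1.14 (SE 0.18, adjusted p = 0.0021), the largest decrease among the members. Leaving out 1 library at a time gave values from -1.41 to -0.998 and an adjusted p of at most 0.017.

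Tnfsf9 encodes 4-1BB ligand, another T cell costimulator, on chromosome 17 (57105385 to 57107757, plus strand). Veh libraries held 3.21, 2.84 and 3.94 CPM, LPS libraries 321, 275 and 269 CPM and T0+LPS libraries 137, 179 and 190 CPM. No groups overlapped, and T0+LPS replicate 1 was the lowest of its group. LPS raised the level 86.1-fold (log2 fold change 6.43, SE 0.10, adjusted p = 9.1e-18), and T0+LPS was lower than LPS by 0.77 on the log2 scale (SE 0.09, adjusted p = 2.0e-04). Fitted without 1 library at a time, the T0+LPS difference was between -0.86 and -0.64. T0+LPS remained above Veh, with a log2 fold change of 5.63.

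Tnfsf15 encodes TL1A, a ligand that costimulates T cells and innate lymphoid cells, on chromosome 4 (63724603 to 63745113, minus strand). Its level was 1.92, 1.52 and 1.85 CPM in Veh, 79.5, 75.1 and 68.6 CPM in LPS and 40.0, 45.7 and 54.1 CPM in T0+LPS. Again no groups overlapped, and the highest T0+LPS library was below the lowest LPS library. The rise with LPS was 41.7-fold (log2 fold change 5.38, SE 0.10, adjusted p = 1.1e-16). Against LPS, T0+LPS differed by -0.67 (log2, SE 0.09, adjusted p = 3.7e-04), with values between -0.79 and -0.57 when a library was left out.

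The remaining ligands stayed low. Tnfsf10 encodes TRAIL, which can trigger apoptosis through death receptors, and lies on chromosome 3 (27317077 to 27339665, plus strand). It was at 1.02, 1.79 and 1.85 CPM in Veh, 1.82, 1.46 and 1.47 CPM in LPS and 1.22, 1.11 and 1.32 CPM in T0+LPS. LPS and Veh overlapped, while every T0+LPS library was lower than every LPS library without the test being passed, with a log2 fold change of -0.37 (SE 0.27, adjusted p = 0.61). Tnfsf13b encodes BAFF, a B cell survival factor, on chromosome 8 (10006633 to 10035999, plus strand). Its levels were 3.80, 3.83 and 3.07 CPM in Veh, 2.54, 2.91 and 2.86 CPM in LPS and 2.89, 1.74 and 1.94 CPM in T0+LPS. LPS libraries lay below Veh, but the log2 fold change of -0.36 was not called (SE 0.18, adjusted p = 0.092) unless libraries were scaled by their totals (-0.64, adjusted p = 0.0044). T0+LPS was lower than Veh by 0.73 on the log2 scale (SE 0.21, adjusted p = 0.0067), the single member called lower in that comparison.

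Among the receptors, Tnfrsf1b and Fas rose the most with LPS. Tnfrsf1b encodes TNF receptor 2, which lacks a death domain, on chromosome 4 (145212368 to 145246870, minus strand). Its levels were 1441, 1391 and 1395 CPM in Veh, 4751, 4700 and 4802 CPM in LPS and 4340, 4506 and 4512 CPM in T0+LPS. LPS raised it 3.38-fold (log2 fold change 1.76, SE 0.04, adjusted p = 5.7e-16). Every T0+LPS library was lower than every LPS library, but the log2 fold change of -0.09 did not pass the test (SE 0.04, adjusted p = 0.28).

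Fas encodes a death receptor and lies on chromosome 19 (34290659 to 34327770, plus strand). Veh libraries held 3.96, 3.44 and 5.16 CPM, LPS libraries 48.0, 47.2 and 49.3 CPM and T0+LPS libraries 52.9, 55.0 and 54.9 CPM. LPS raised it 11.5-fold (log2 fold change 3.52, SE 0.10, adjusted p = 2.3e-14). Here T0+LPS lay above LPS in all libraries, with a log2 fold change of 0.17 that was not called (SE 0.06, adjusted p = 0.15). Fas was also measured on 2 rows, with 1246 unshared bases for a long row of 9 exons and 315 for a short one of 3. The short row took 3.45% to 13.5% of Fas reads in a library, with 3 to 7 counts in Veh.

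Tnfrsf1a encodes TNF receptor 1, the death domain receptor found on most cells, on chromosome 6 (125349723 to 125362483, plus strand). Its levels were 206, 201 and 198 CPM in Veh, 225, 233 and 228 CPM in LPS and 244, 236 and 234 CPM in T0+LPS. The groups did not overlap, but the LPS difference was 13.7% (log2 fold change 0.18, SE 0.04, adjusted p = 9.9e-04) and turned to -0.10 (adjusted p = 0.042) when libraries were scaled by their totals, so its direction depends on the scaling. T0+LPS against LPS gave 0.06 (SE 0.04, adjusted p = 0.65). Tnfrsf11a encodes RANK, the receptor through which RANK ligand drives osteoclast formation, on chromosome 1 (105780723 to 105847981, plus strand). It was at 104, 111 and 99.7 CPM in Veh, 127, 123 and 136 CPM in LPS and 107, 126 and 117 CPM in T0+LPS. LPS lay above Veh by 0.30 on the log2 scale (SE 0.05, adjusted p = 1.7e-04), but with library totals the value was 0.01 (adjusted p = 0.84). T0+LPS overlapped LPS, with a log2 fold change of -0.14 (SE 0.06, adjusted p = 0.32).

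**Figure D3:**
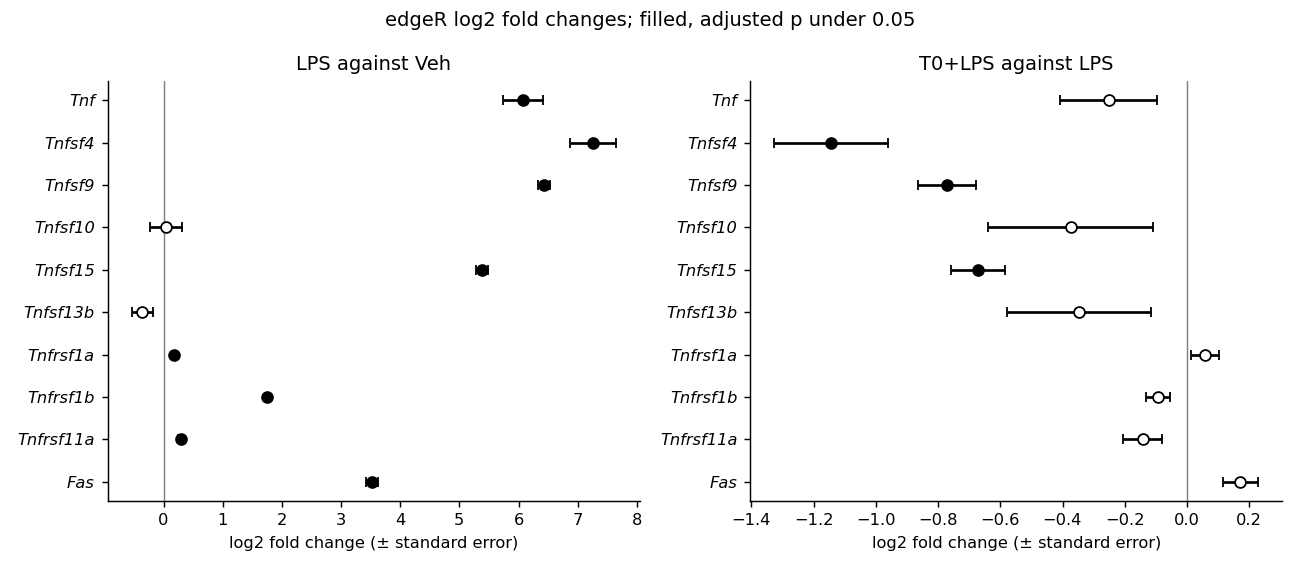
Log2 fold changes (x axes) with standard errors of the 10 members for LPS against Veh and T0+LPS against LPS, from edgeR fits to 6 libraries each, with filled points at an adjusted p under 0.05. In LPS against Veh 8 members are filled and all 8 are positive, though Tnfrsf1a turns negative and Tnfrsf11a loses its call with library totals; in T0+LPS against LPS Tnfsf4, Tnfsf9 and Tnfsf15 are filled, at -1.14, -0.77 and -0.67.

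The ratio of the TNF receptors within a library does not depend on the scaling. Reads per base of Tnfrsf1b over those of Tnfrsf1a were 3.07, 3.03 and 3.10 in Veh, 9.27, 8.85 and 9.23 in LPS and 7.81, 8.38 and 8.44 in T0+LPS. The groups did not overlap, with means of 3.07 ± 0.0325 in Veh, 9.12 ± 0.235 in LPS and 8.21 ± 0.350 in T0+LPS (SD, n = 3). A two-sided exact permutation test gave p = 0.1 for each pair of groups, the smallest p that 3 against 3 allows.

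**Figure D4:**
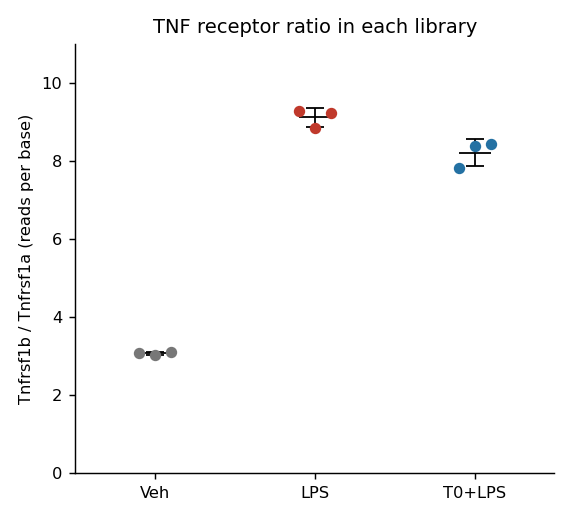
Reads per unshared base of Tnfrsf1b divided by those of Tnfrsf1a (y axis, from 0) in each library of the 3 groups, with points for libraries and bars for the mean ± SD. Veh libraries sit at 3.03 to 3.10, LPS libraries at 8.85 to 9.27 and T0+LPS libraries at 7.81 to 8.44.

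The 3 groups ordered the members differently. In Veh the receptors Tnfrsf1b (287 CPM per kb), Tnfrsf1a (93.5) and Tnfrsf11a (20.9) led the members, and Fas and every member ligand were at 2.71 CPM per kb or less. This order holds for the members only, since the other ligand Tnfsf12 was at 75.0 to 82.2 CPM per kb in Veh. Neighbours from Tnfsf9 through Fas and Tnfsf13b to Tnf overlapped in Veh, as did Tnfsf10 and Tnfsf15. In LPS, Tnfsf9 stood second to Tnfrsf1b with 234 against 967 CPM per kb, followed by Tnf (122) and Tnfrsf1a (106), whose libraries overlapped, and then Fas (30.9), Tnfrsf11a (25.6), Tnfsf15 (12.8), Tnfsf4 (8.18), Tnfsf13b (1.63) and Tnfsf10 (0.320). In T0+LPS, Tnfsf9 (137), Tnfrsf1a (110) and Tnf (102 CPM per kb) overlapped as neighbours below Tnfrsf1b (906). The place of Tnf in each order rests on its 48 unshared bases. How reads that span shared and unshared bases were assigned is not known, so the level of Tnf beside other genes is uncertain.

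Expressed as a share of the rise over Veh that LPS produced, the members called higher with LPS fell into an uneven range with T0. T0+LPS libraries showed on average 44.7% of the LPS rise for Tnfsf4 (35.5% to 59.8% over libraries), 58.1% for Tnfsf9 (46.9% to 65.5%) and 61.7% for Tnfsf15 (52.7% to 72.1%). The share was 83.7% for Tnf, 91.1% for Tnfrsf1b and 114% for Fas. Small rises gave unstable shares, from 6.40% to 89.8% for Tnfrsf11a and from 121% to 156% for Tnfrsf1a, whose LPS rise itself reverses with library totals. These shares are a description, since the LPS libraries enter both differences.

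**Figure D5:**
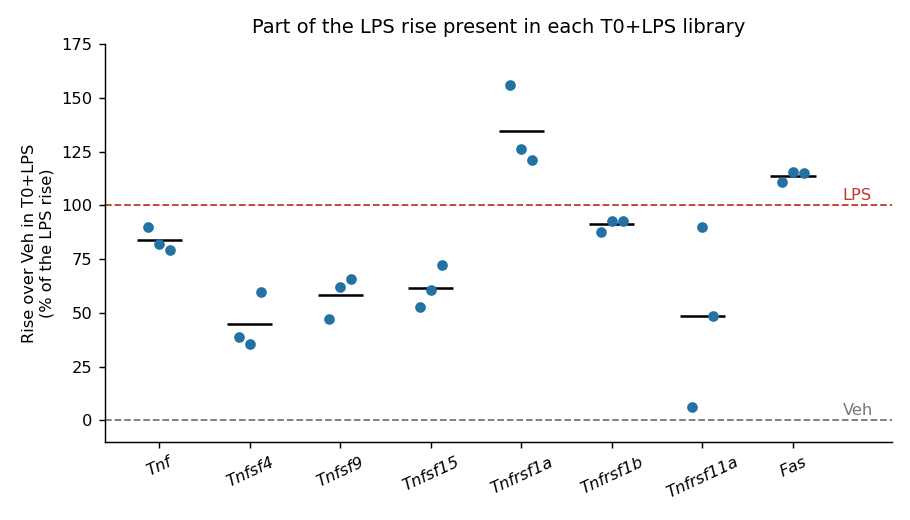
Rise over the Veh mean in each T0+LPS library as a percentage of the mean LPS rise (y axis), for the 8 members called higher with LPS, with points for libraries, short lines for means, and dashed lines at the Veh (0) and LPS (100) means. Tnf, Tnfsf4, Tnfsf9, Tnfsf15, Tnfrsf1b and Tnfrsf11a lie below the LPS line in every library, with Tnfrsf11a spread from 6.40% to 89.8%, and Fas and Tnfrsf1a lie above it, though the rise of Tnfrsf1a reverses with library totals.

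In LPS against Veh, 8 members lay wholly above and 1 wholly below, where 33.6% and 33.7% of all genes tested did so. In T0+LPS against LPS, 5 lay wholly below and 2 wholly above, where 9.62% and 9.51% did. At an unadjusted p under 0.05 in edgeR, 1 member was higher (Fas) and 5 were lower (Tnfrsf1b and Tnfrsf11a beside the 3 called). The share of all genes under that unadjusted threshold is not given. Counts at it, here and for the lists below, therefore have no background to be read against. DESeq2 and limma-voom, like edgeR, called 0 members higher and 3 lower. T0+LPS against Veh, which shares its libraries with the other comparisons, called 7 members higher and 1 lower, where 32.4% and 32.9% of all genes were called. The median over members was 2.65, beside -0.03 over all genes. Tnfrsf11a was the member called higher with LPS but not there (0.13, SE 0.06, adjusted p = 0.063).

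The genes whose pattern over the 9 libraries was most like that of Tnfsf4, by Pearson's r of log2(CPM + 0.5), were Zfp36 (0.997), Pcdh7 (0.997), Zfp558 (0.996), Cr1l (0.995) and Hnrnpll (0.995). Zfp36, which encodes an mRNA decay factor, went from 133 CPM in Veh to 266 CPM in LPS and 224 CPM in T0+LPS. For Tnfsf9 they were Gadd45b, Tnfsf15, D8Ertd82e, Jag1 and Rrs1, each at 0.999, and Jag1, a Notch ligand, went from 19.2 CPM to 198 CPM and 154 CPM. These values describe likeness over 9 libraries in which the step from Veh to LPS carries most of the variation.

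Most other ligands of the family could not be tested, and for some the table holds no measurement. Tnfsf13 had 0 unshared bases, Eda 17 and Fasl 46, so their 0 reads say nothing of their level, while Tnfsf11 and Cd40lg had 0 reads on 2235 and 1250 unshared bases. Of the 12 in the table, 3 were tested in LPS against Veh, where 1 was called higher and 1 lower. Over all genes tested, 32.9% were called higher and 31.2% lower. DESeq2, with its own filter on low counts, called 2 of these ligands higher and 1 lower. Tnfsf18, which encodes GITR ligand and lies 76.5 kb from Tnfsf4, rose from 0.344 CPM to 1.32 CPM (log2 fold change 1.89, adjusted p = 3.4e-04, edgeR's quasi-likelihood test). Its counts were only 8, 3 and 7 in Veh and 12, 18 and 22 in LPS. Tnfsf12, which encodes TWEAK, fell from 56.3 CPM to 39.8 CPM (log2 fold change -0.49, adjusted p = 1.4e-05). The median over the 3 tested was 0.28. In T0+LPS against LPS edgeR, DESeq2 and limma-voom called 0 of 3, with 0 at an unadjusted p under 0.05 and a median of 0.08. Of all genes tested, edgeR called 1.35% higher and 1.83% lower there. Lymphotoxin alpha (Lta), 1.16 kb from Tnf, held 0 to 2 counts in Veh, 4 to 5 in LPS and 2 to 5 in T0+LPS, and Ltb, 3.06 kb from Tnf, held 4 to 14 in all libraries. Cd70, 38.2 kb from Tnfsf9, held 0 counts in every Veh library, 5, 8 and 3 in LPS and 3, 5 and 0 in T0+LPS. Tnfsf8, 87.7 kb from Tnfsf15, held 10, 12 and 17 counts in Veh and 0 to 7 in the other groups. Tnfsf14, 81.7 kb from Tnfsf9, held 9 to 26 counts in a library and was not called in LPS against Veh (0.28, SE 0.32, adjusted p = 0.46).

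Receptors for the member ligands could be read only in part. OX40 (Tnfrsf4), the receptor of the Tnfsf4 product, was at 0.908 CPM in Veh and 0.449 CPM in LPS (adjusted p = 0.10), and 4-1BB (Tnfrsf9), the receptor of the Tnfsf9 product, had 87 unshared bases and 0 reads, so its level could not be measured. Of the 24 other receptors in the table, 11 were tested, and LPS raised 3 and lowered 7 of them (median log2 fold change -0.36). Over all genes tested, 32.9% were called higher and 31.2% lower with LPS. For these receptors limma-voom also called 3 higher and 7 lower, but DESeq2, with its own filter on low counts, called 4 higher and 5 lower. Tnfrsf8, which encodes CD30 and lies 22.1 kb from Tnfrsf1b, rose from 0.213 CPM to 1.81 CPM (3.02, adjusted p = 1.6e-06), with only 5, 3 and 3 counts in Veh. Tnfrsf10b, a mouse TRAIL receptor, rose by 1.18 (adjusted p = 0.0022) and Tnfrsf14, which encodes HVEM, by 0.96 (adjusted p = 7.8e-08), while Relt fell by 1.42 on the log2 scale (adjusted p = 1.5e-04). Relt held 11, 9 and 11 counts in LPS. In T0+LPS against LPS, edgeR, DESeq2 and limma-voom each called 0 of 11, where edgeR called 1.35% of all genes tested higher and 1.83% lower. The median was -0.15, and 1 was higher and 1 lower at an unadjusted p under 0.05 in edgeR, without a background share.

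Of 29 genes in the table that carry or restrain signals below the receptors, 20 were tested in LPS against Veh, and 12 rose and 3 fell (median 0.58), where 32.9% and 31.2% of all genes tested did. DESeq2 called 13 signalling genes higher and 3 lower. Tnfaip3, which encodes the NF-kB inhibitor A20, rose from 0.455 CPM to 25.3 CPM (log2 fold change 5.79, adjusted p = 9.2e-15), Traf1 from 11.3 CPM to 204 CPM (4.17, adjusted p = 1.5e-17) and Birc3, which encodes cIAP2, from 54.5 CPM to 354 CPM (2.70, adjusted p = 1.9e-16). Cflar, which encodes the caspase-8 inhibitor cFLIP, held 5 counts over Veh and 199 over LPS, a ratio of 51.7 with an exact counting interval from 21.8 to 161. All 441 of its reads lie on a short row of 5 exons with 901 unshared bases, and its rows of 10 exons have no base of their own. Tnfaip3 has 431 unshared bases over 2 rows. Among genes not tested in LPS against Veh, Cyld had 12 unshared bases, Chuk 17, Traf2 21, Ikbkg 63, Ripk3 and Map3k7 81 each and Adam17 99. Their low or absent counts therefore say little of their level. Tnip1 (158) and Rhbdf2 (364) were not tested there either. With T0+LPS against LPS, 1 of 21 tested was called lower and 0 higher by edgeR, DESeq2 and limma-voom alike, where edgeR called 1.83% and 1.35% of all genes tested. At an unadjusted p under 0.05 in edgeR, 2 were higher and 3 lower, without a background share, and the median was 0.04. The gene called was Traf5, a TRAF adaptor, at 39.0, 35.2 and 30.4 CPM in LPS and 27.1, 25.1 and 25.6 CPM in T0+LPS (log2 fold change -0.43, SE 0.09, adjusted p = 0.012). Its call was lost without LPS replicate 1 (adjusted p = 0.087), T0+LPS replicate 2 (0.072) or T0+LPS replicate 3 (0.051). Tnfaip3 lay lower in all T0+LPS libraries without passing the test (-0.34, SE 0.10, adjusted p = 0.070).

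In T0+LPS against Veh, 1 of 4 other ligands tested was higher and 1 lower, 3 of 11 other receptors were higher and 6 lower, and 12 of 20 signalling genes were higher and 3 lower, with medians of 0.12, -0.26 and 0.49. Over all genes tested, 32.4% were called higher and 32.9% lower there, with a median of -0.03. DESeq2 called 1 other ligand higher and 2 lower, 4 other receptors higher and 6 lower, and 13 signalling genes higher and 3 lower.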

How the data were processed

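RNA-seq was measured in 9 BMDM libraries, 3 per group as labelled. Per the study's methods polyadenylated RNA was sequenced, and the authors used cutadapt for adaptor trimming, HISAT2 for alignment (mm10 transcriptome) and featureCounts for counting on RefSeq genes. The deposited values are raw read counts for 32850 rows, not normalized, in which a gene symbol can have several rows that differ in their exons. All 6696 rows with no base of their own held 0 reads, so a gene with several rows may be read on a short stretch only. How reads that span shared and unshared bases were assigned is not given in the sources used here. The authors' tables of their own comparisons (means, p-values and folds for T0+LPS against LPS, gene names for LPS against Veh) were not used.

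Counts were summed per symbol and tested for each pair of groups (6 libraries) with edgeR 4.0.16 in R 4.3.3: filterByExpr, TMM factors, quasi-likelihood test and Benjamini-Hochberg adjustment over all genes tested, called under 0.05. Adjusted p-values in the text come from this test unless another is named. SE is the log2 fold change over the root of its F. DESeq2 1.42.0, limma 3.58.1 with voom, other scalings and filters, single rows, a fit to all 9 libraries, a replicate block, an adjusted p under 0.10 and leaving out each library were alternatives. Replicate pairs within groups differed beyond sampling noise (chi-square per degree of freedom 2.75 to 7.18), so all 9 were counted. The study's methods describe cultures differentiated individually, and p-values measure the spread between these samples.

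The members and lists were chosen with earlier results of these data known. Named are the 10 members, genes of 3 fixed family lists (with values up to 4 called per list and comparison by size, and neighbours or receptors of members), and the 5 genes of at least 5 CPM most like the 2 members with the largest T0+LPS difference. Intervals cover counting error only.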

Additional observations from a re-analysis of the deposited data

How the results depend on the processing

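The T0+LPS decreases of Tnfsf4, Tnfsf9 and Tnfsf15 were called under all 9 other alternatives computed per gene and without each of the 6 libraries, and all 10 members kept their direction and side of the threshold there. Over all genes, T0+LPS against LPS gave 225 higher and 285 lower with no filter on low counts, and with a library left out 59 to 167 higher and 82 to 191 lower. The lowest were without LPS replicate 1 (59 and 82), then without T0+LPS replicate 2 (78 and 94), and without T0+LPS replicate 1 there were 103 lower. Library totals in place of TMM factors gave 2 members lower than Veh with LPS and 2 with T0+LPS, and 1694 genes higher and 5411 lower with LPS and 1659 and 5523 with T0+LPS. They reversed Tnfrsf1a (-0.10 with LPS, -0.045 with T0+LPS), Tnfsf10 with LPS (-0.24) and Tnfrsf11a with T0+LPS (-0.13), each against Veh. Tnfsf10 with LPS ranged from -0.20 (without Veh replicate 1) to 0.21 with a library left out, was also below 0 without LPS replicate 1 (-0.07), and was never called. An adjusted p under 0.10 added 1 member lower with LPS. For these shifts the cause was not tested beyond the settings named. Tnfrsf11a in T0+LPS against Veh was called higher with DESeq2 size factors, no filter, all 9 libraries, without Veh replicate 2 or without T0+LPS replicate 1 (adjusted p 0.0032 to 0.040). With library totals it was called lower (-0.13).

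Replicate numbers did not pair the samples, with correlations of deviations between -0.12 and 0.12. With the replicate number as a block, LPS against Veh gave 8 members higher and 0 lower (all genes 3053 and 2926), T0+LPS against LPS 0 and 3 (155 and 230), and T0+LPS against Veh 8 and 1 (3078 and 3124), where Tnfrsf11a was added (adjusted p = 0.031). No other member's call changed.

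Depth limits Tnf and Tnfsf4 in Veh, with 4 counts each over 3 libraries, and Tnfsf10 and Tnfsf13b throughout. Outside the members, depth also limits Tnfsf18 and Tnfrsf8 in Veh and Relt in LPS.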
